A study of Mus musculus with 2 samples.

Results

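Cytochrome P450 enzymes, aldo-keto reductases of family 1 and hydroxysteroid dehydrogenases make up the enzymes described here, as read in cultured mouse macrophages and osteoclasts. The 104 genes are all those with a probe set of their own whose symbol begins with Cyp and a digit, with Akr1, or with Hsd and a digit, apart from 1 gene that the rule left out, among 18193 genes in all. They comprised 73 P450 genes, 14 aldo-keto reductase genes and 17 hydroxysteroid dehydrogenase genes. The symbols alone decided membership, but the probe set that stands for a gene was chosen by the measured values, as the one whose log2 signals had the highest mean, and the family was taken up with the values of its most different members already known. The differences are therefore a description, and no test is attached to them.

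P450 enzymes use heme and electrons from a partner reductase to insert oxygen into lipids, steroids, vitamins and foreign compounds. Most drug-metabolising P450s belong to the liver, while a smaller number in other tissues act on sterols, fatty acids and retinoic acid. Aldo-keto reductases and hydroxysteroid dehydrogenases move hydrogen between NAD or NADP and a carbonyl or hydroxyl group, and so switch steroids, prostaglandins, aldehydes and fatty acyl chains between oxidised and reduced forms. Several dehydrogenases named for steroids act mainly on fatty acids in mitochondria, peroxisomes or the endoplasmic reticulum.

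Both groups were grown from bone marrow of C57/Black6 mice aged 8 weeks, per the labels. Marrow cells were kept for 3 days with M-CSF, the growth factor of the macrophage lineage, and the adherent cells served as progenitors of both cell types. The macrophage group was then given M-CSF alone, and the osteoclast group M-CSF with RANKL, the cytokine that directs such progenitors into osteoclasts, and the labels give 6 days for this culture. Each group is 1 Affymetrix array of total RNA, and the labels do not say whether the cells of both came from the same animals or from a pool. A single array per group allows no replicate check and no p-value, and the number of arrays limits the precision. These are RNA signals of whole cultures, in which a larger share of cells with a transcript and more transcript per cell cannot be told apart.

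Signals are the deposited linear intensities. Osteoclast signals were lower in general, with a median log2 difference of -0.43 over 23708 probe sets, and differences below are log2 of osteoclast over macrophage relative to that shift unless said to be as deposited. A signal counted as measured above a floor, the 40th percentile of each array (17 in macrophages and 14.4 in osteoclasts), and the floor replaced any lower value. A stricter level, called the receptor level here, was the 95th percentile of 78 probe sets of olfactory and vomeronasal receptors (28.3 and 25.8). That these receptors are silent in both cell types was assumed and not tested. Of the 78 probe sets 16 passed the floor in macrophages and 12 in osteoclasts. The only measure of error was the SD between probe sets of the same gene, 0.49 on the log2 scale, which covers no variation between cultures or animals.

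Markers of the labelled cell types were read first. All 9 osteoclast markers, among them Acp5, Ctsk and Calcr, were at least 2-fold higher in the osteoclast array, and of 7 macrophage markers 3 were at least 2-fold lower (4 as deposited). Of 13 granulocyte markers 11 had a probe set, 9 of these were at least 2-fold higher in osteoclasts relative to the shift and 5 as deposited, and their summed signal was 3830 in macrophages and 6669 in osteoclasts. Of 8 stromal and adipocyte markers 7 were above the floor. Relative to the shift 2 of these were at least 2-fold higher and 0 lower, and as deposited 1 and 1. Their signals summed to 9662 in macrophages and 6191 in osteoclasts, with Col1a2 alone at 5744 and 2895. All 4 hepatocyte markers with a probe set, Alb among them, lay below the floor in both arrays. Xist, the RNA of the silenced X chromosome, gave 1872 in macrophages and 22.1 in osteoclasts, and the Y-linked gene Eif2s3y gave 0.571 and 321. Uty and Kdm5d, also Y-linked, gave 14.7 and 6.14 in macrophages and 72.7 and 63.5 in osteoclasts, so the arrays differ in sex. Treatment, sex and animal therefore cannot be told apart, and the part of the granulocyte and stromal signals in the results was not tested.

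Much of the family was at background. In both arrays 48 of the 104 members, or 46.2%, lay below the floor, against 4546 of all 18193 genes, or 25%. A further 24 lay above the floor in an array but nowhere above the receptor level, so that 72 members were near background. The remaining 32 passed the receptor level in at least 1 array: 21 in both, 5 in macrophages only and 6 in osteoclasts only. Of all 18193 genes 11496 passed that level in at least 1 array. P450 genes were the faintest class within the family, with 17 of 73 above the receptor level. The others were 8 of 14 aldo-keto reductases and 7 of 17 hydroxysteroid dehydrogenases.

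Most of the enzymes that could be read differed by less than 2-fold between the cell types, and a pair of genes, Akr1c18 and Cyp2s1, stood far from the rest. Of the 56 members above the floor, 8 were at least 2-fold higher in osteoclasts (14.3%), where 7.11% of all 13647 measured genes were, and 2 were at least 2-fold lower (3.57%), where 6.99% of all were. At the receptor level 4 of 32 members were higher and 1 lower, against 6.30% and 6.53% of 11496 genes. As deposited 3 of the 56 were higher and 10 lower, with 3.0% and 17.5% of all genes in these classes. The median of the 56 was 0.00, as was that of all measured genes. The centring places the latter near 0, and the members include bounds set to 0. At the receptor level the medians were -0.0125 for members and -0.0027 for all genes. As deposited, above the floor, they were -0.387 and -0.4287. The 4 higher members at the receptor level were Akr1c18, Cyp2s1, Hsd17b10 and Hsd3b7, and the lower one was Cyp27a1. Members that passed the floor in osteoclasts alone had to be higher there, so these shares support no statement about the family.

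**Figure D1:**
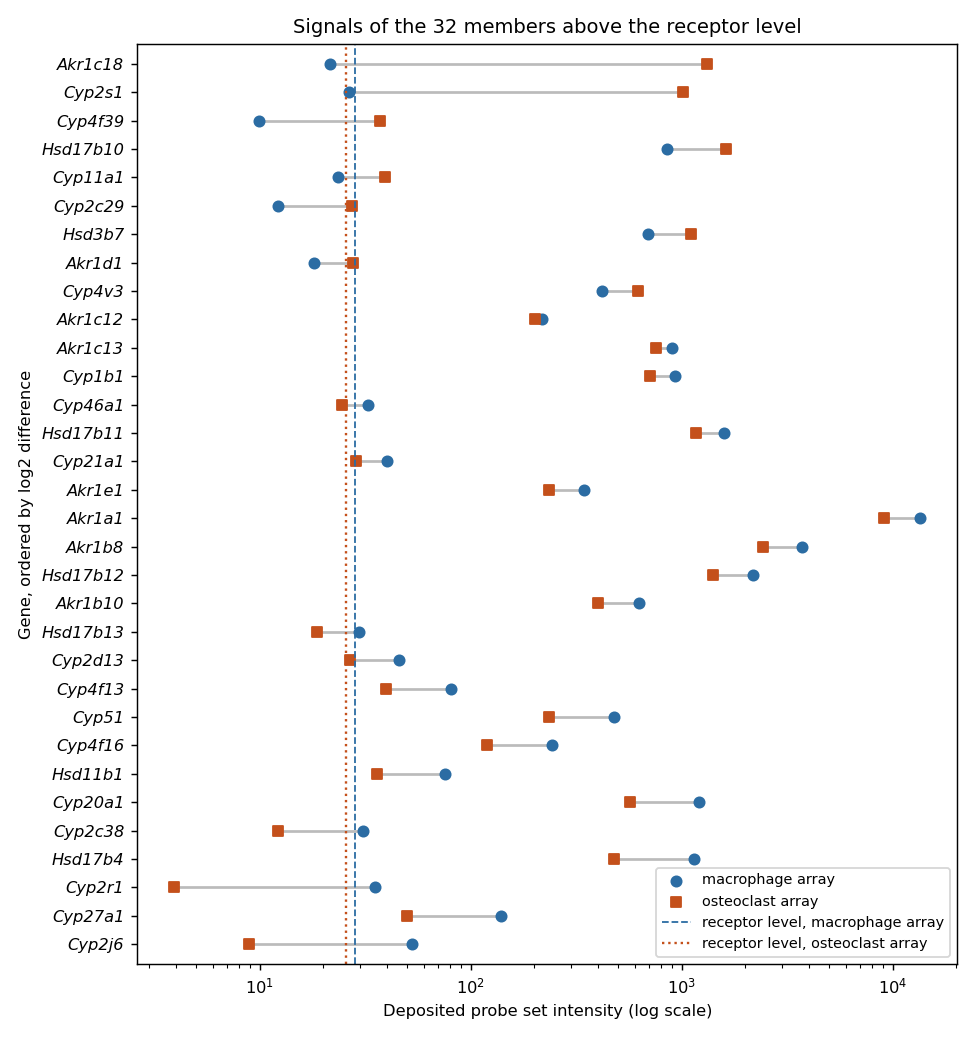
Deposited intensity (log scale) of each of the 32 members above the receptor level, with a circle for the macrophage array and a square for the osteoclast array, ordered by their log2 difference relative to the shift. Vertical lines mark the receptor level of each array. Akr1c18 and Cyp2s1 lie under the line in macrophages and at 1318 and 1010 in osteoclasts, while most other pairs lie close together.

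**Figure D2:**
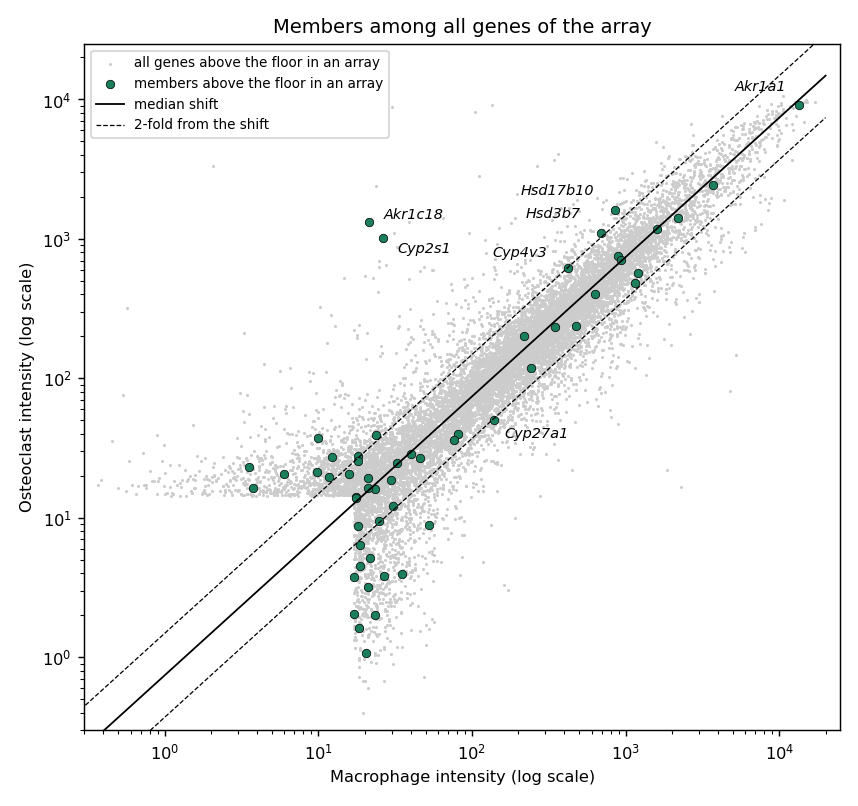
Osteoclast against macrophage intensity (log scales) for the 13647 genes above the floor in an array (grey) and the 56 members among them (green). The solid line is the median shift and the dashed lines lie 2-fold from it. Most bright members follow the solid line, and Akr1c18 and Cyp2s1 sit apart at the upper left.

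Akr1c18 encodes 20-alpha-hydroxysteroid dehydrogenase, the enzyme that turns progesterone into a form with little activity at the progesterone receptor. The macrophage array gave 21.5 and the osteoclast array 1318. The macrophage value lay between the floor and the receptor level, so the log2 difference of 6.37 is close to a bound. With the macrophage signal raised to the receptor level, Akr1c18 was at least 62.9-fold higher in osteoclasts after the shift was taken out, and at least 46.6-fold as deposited. A single probe set reads this gene, so no other one checks it.

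Cyp2s1, a P450 outside the liver that can act on retinoic acid and on lipid mediators, gave 26.5 in macrophages and 1010 in osteoclasts. Here too the macrophage signal was within background and the osteoclast signal far above it. The log2 difference was 5.68, and with the macrophage signal at the receptor level the gene was at least 48.1-fold higher once the shift was taken out and at least 35.7-fold as deposited. It also has a single probe set.

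The promoters of these 2 genes are shown because no other members approached their differences. Each run covers 250 bases before and 50 after the start of the gene in RefSeq (GRCm38.p6), 5′ to 3′ on the gene's strand, matched by symbol. Both genes lie on the minus strand, Akr1c18 at chr13:4150597-4150896 and Cyp2s1 at chr7:25816476-25816775. Capitals mark matches, on either strand, to any of 5 short motifs.
Akr1c18: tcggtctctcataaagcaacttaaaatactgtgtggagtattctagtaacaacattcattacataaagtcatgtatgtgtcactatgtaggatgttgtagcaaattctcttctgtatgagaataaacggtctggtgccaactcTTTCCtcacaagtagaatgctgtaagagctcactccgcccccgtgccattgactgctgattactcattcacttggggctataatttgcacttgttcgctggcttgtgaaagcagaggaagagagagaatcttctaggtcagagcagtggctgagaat
Cyp2s1: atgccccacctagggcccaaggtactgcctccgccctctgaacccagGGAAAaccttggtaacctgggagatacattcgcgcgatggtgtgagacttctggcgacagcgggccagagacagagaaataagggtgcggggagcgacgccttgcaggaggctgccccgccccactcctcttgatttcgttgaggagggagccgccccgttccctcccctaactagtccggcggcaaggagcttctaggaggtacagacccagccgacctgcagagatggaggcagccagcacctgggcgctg

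The motifs searched were GGAAA (the core bound by NFAT factors), TGANTCA (AP-1), GCGTG (the core bound by the Ah receptor with ARNT), CACGTG (the E-box bound by MITF and TFE factors) and TGACNNNGC (the core of the antioxidant response element). Only GGAAA or its complement was found, with 1 match in each promoter. That motif occurs in 61.3% of all 32851 promoters of this length in the table, and in 58.1% of 86 promoters of the members, of which 77 genes had an entry. TGANTCA occurs in 7.81% of all promoters, GCGTG in 32.4%, CACGTG in 7.15% and TGACNNNGC in 12.4%. The windows also differ in composition, with 42.3% G and C for Akr1c18 and 63.0% for Cyp2s1.

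The difference of Akr1c18 was not seen in its neighbours. In RefSeq's gene order Akr1c18 is the second of 9 adjacent protein-coding genes of the family, from Akr1c14 to Akr1e1. Akr1c13 gave 898 in macrophages and 754 in osteoclasts (0.18), Akr1c12 gave 219 and 203 (0.32), and Akr1e1, which reduces the sugar anhydrofructose, gave 346 and 235 (-0.13). Signals of Akr1c14, Akr1c19, Akr1c6 and Akr1c21 were below the floor in both arrays, and Akr1c20 was near background (17.2 and 3.78). These genes are alike in sequence, and how far a probe set reads a related transcript was not tested. Cyp2s1 lies between Axl, a receptor kinase gene, and Cyp2b10. Axl gave 1031 and 309 (-1.31), while Cyp2b10, Cyp2b13 and Cyp2b9 stayed under the receptor level in both arrays.

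Among the other hydroxysteroid aldo-keto reductases, Akr1d1, the 5-beta-reductase of bile acid synthesis, gave 18.2 in macrophages and 27.7 in osteoclasts. Its difference of 1.04 rests on values around the receptor level and shrank to 0.40 there. The other probe set of Akr1d1 was below the floor in both arrays (5.28 and 6.74). With the mean of both probe sets the difference was 0.0. Akr1cl was near background in both arrays. Of the 10 genes of this class 4 were below the floor in both arrays.

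Aldehyde and aldose reductases were bright in both cell types and kept to the shift. Akr1a1, which reduces a wide range of aldehydes, gave 13492 in macrophages and 9075 in osteoclasts (-0.14), and its 4 probe sets ran from -0.14 to -0.03. Akr1b8 gave 3728 and 2441 (-0.18) and Akr1b10 628 and 403 (-0.21). With Akr1e1, all 4 members of this class lay between -0.21 and -0.13, well within the SD between probe sets.

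**Figure D3:**
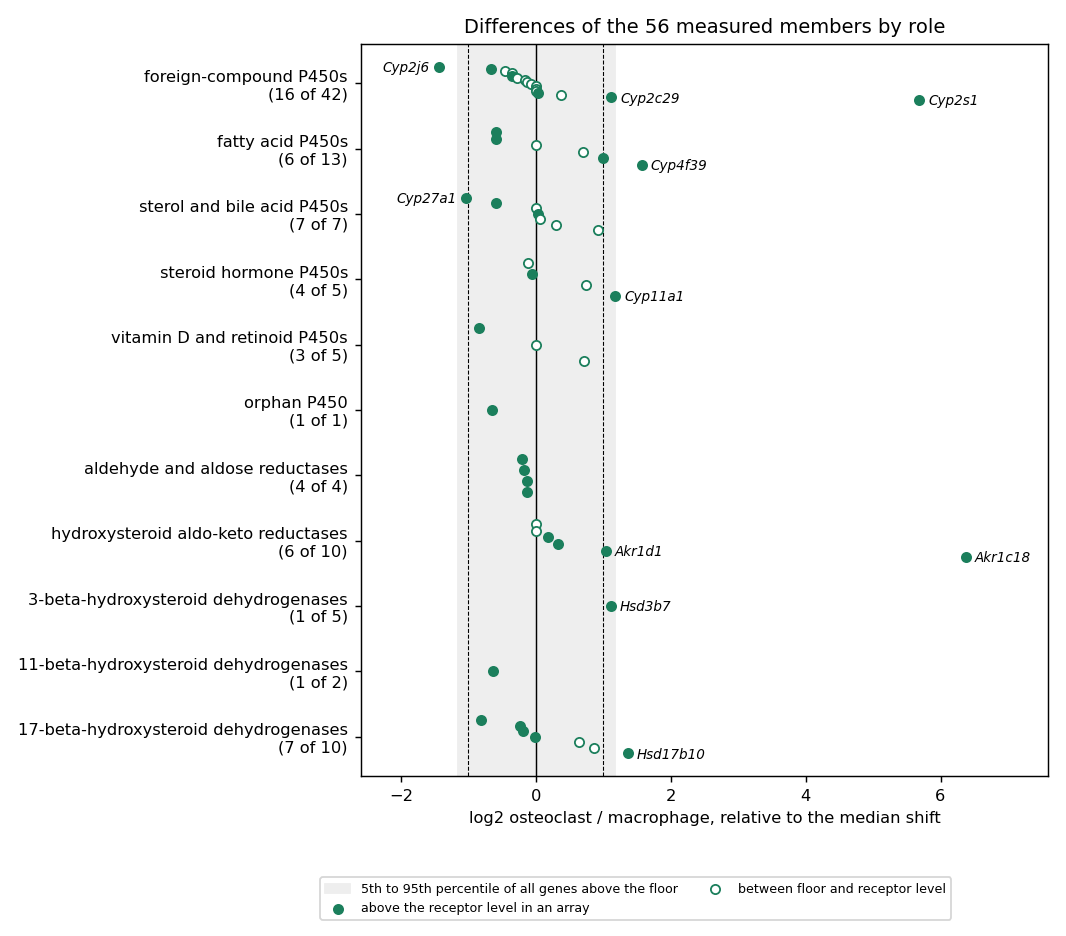
Log2 difference, osteoclast over macrophage relative to the median shift, of the 56 members above the floor, grouped by role, with measured and total members in brackets. Filled points passed the receptor level in an array and open points did not; the grey band spans the 5th to 95th percentile of all measured genes (-1.16 to 1.17) and dashed lines mark 2-fold. Cyp2s1 at 5.68 and Akr1c18 at 6.37 are far to the right of the band.

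Hydroxysteroid dehydrogenases included 2 further genes with higher signals in osteoclasts. Hsd17b10 encodes a mitochondrial enzyme that breaks down isoleucine and steroids and is also a part of mitochondrial RNase P. It gave 848 in macrophages and 1615 in osteoclasts. The difference was 1.36, and 1.46 in the other probe set. As deposited the difference was 0.93, under 2-fold. Hsd17b10 is X-linked. The 424 measured X-linked genes other than Xist, Hsd17b10 among them, had a median of -0.08. Of these 4.48% were at least 2-fold higher, where 7.11% of all measured genes were. The part of the sex difference between the arrays in the Hsd17b10 value was not tested. Hsd3b7, which acts in the conversion of sterols to bile acids and also on hydroxylated oxysterols, gave 694 and 1108. Its difference was 1.11, and 0.68 as deposited, from a single probe set.

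The other readable dehydrogenases lay at or below the shift. Hsd17b4, the peroxisomal enzyme of very-long-chain and branched fatty acid oxidation, gave 1145 in macrophages and 480 in osteoclasts (-0.82), with its other probe set at -0.60. As deposited it was 2.38-fold lower. Hsd17b12, the ketoacyl reductase of fatty acid elongation, gave 2179 and 1408 (-0.20), and Hsd17b11, a lipid droplet protein, 1594 and 1168 (-0.02). The mean of all 3 probe sets of Hsd17b11, of which 1 was below the floor in both arrays, gave -1.17. Hsd11b1, which regenerates active glucocorticoid inside cells, was dim at 75.9 and 36.0 (-0.64). Hsd17b13 was just above the receptor level in macrophages (29.6) and below it in osteoclasts (18.7). Hsd17b3 and Hsd17b6, which act on androgens, stayed between the floor and the receptor level, and 4 of 5 Hsd3b genes were below the floor in both arrays.

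Of the sterol P450s, Cyp27a1 and Cyp51 had lower signals in osteoclasts. Cyp27a1, the mitochondrial sterol 27-hydroxylase that opens a route from cholesterol to bile acids, gave 139 in macrophages and 50.2 in osteoclasts, a difference of -1.04. It sits just past 2-fold and its other probe set was below the floor in both arrays. With the mean of both probe sets the difference was -0.37. Cyp51, the demethylase of cholesterol synthesis, gave 479 and 236 (-0.59), and a second measured probe set gave -1.0. As deposited Cyp51 was 2.03-fold lower. Cyp46a1, known for cholesterol turnover in brain, was at 32.6 and 24.7, around the receptor level. Cyp7a1, the first enzyme of the main bile acid route, and Cyp7b1, Cyp8b1 and Cyp39a1 were near background.

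Of 6 measured fatty acid P450s 1, Cyp4f39, was at least 2-fold higher and 0 were lower. Over all measured genes 7.11% were higher and 6.99% lower. Cyp4v3, an omega-hydroxylase, gave 421 in macrophages and 619 in osteoclasts. Its difference of 0.99 lies just inside 2-fold, and the other probe set gave 0.83. Cyp4f16 gave 243 and 119 (-0.60), with another probe set at 0.07, and Cyp4f13 gave 80.7 and 39.8 (-0.59). Cyp4f39 was below the floor in macrophages (9.99) and at 37.4 in osteoclasts, a difference of 1.57, or 1.13 as deposited. With the macrophage signal at the receptor level it was at least 1.78-fold higher, under 2-fold. Cyp4f18, which inactivates leukotriene B4 in mouse leukocytes, was near background at 17.1 and 2.04, as was Cyp4f15 at 15.9 and 20.5. The other 7 of the 13 genes were below the floor in both arrays.

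Of 42 foreign-compound P450s, 26 were below the floor in both arrays and 10 more were near background: Cyp1a1, Cyp2b9, Cyp2b10, Cyp2c65, Cyp2c68, Cyp2c70, Cyp2e1, Cyp2g1, Cyp2u1 and Cyp3a13. Besides Cyp2s1, 5 genes of this class passed the receptor level in an array. One was Cyp1b1, which oxidises estradiol, retinoids and aromatic pollutants. It gave 933 in macrophages and 706 in osteoclasts. The difference was 0.03, and its other measured probe set gave -0.15. The mean of all 3 probe sets, of which 1 was below the floor in both arrays, gave -0.76. Cyp2j6, a fatty acid epoxygenase by family, gave 52.8 and 8.89. Its difference of -1.44 is a bound against the floor, it was at least 1.51-fold lower at the receptor level, and its other probe set gave -0.61. Cyp2d13 (46 and 26.7), Cyp2c38 (30.8 and 12.2) and Cyp2c29 (12.2 and 27.3) lay around the receptor level. The orphan P450 Cyp20a1, whose substrate is not known, gave 1206 and 568 (-0.65). Its 3 probe sets did not agree, with -0.65 and -0.51 in the brighter ones and 0.95 in the dimmest, and their mean gave -0.07.

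Steroid hormone, vitamin D and retinoid P450s were at or close to background. Cyp11a1, which starts steroid synthesis from cholesterol, gave 23.6 in macrophages and 39.5 in osteoclasts. The other 2 probe sets of Cyp11a1 were below the floor in both arrays. Its difference was 1.18, at the receptor level it was at least 1.88-fold higher, and the mean of its 3 probe sets was below the floor in both arrays. Cyp21a1, a steroid 21-hydroxylase, gave 40.3 and 28.6, and Cyp11b1 and Cyp11b2 did not reach the receptor level. The vitamin D 25-hydroxylase gene Cyp2r1 gave 35.1 in macrophages and 3.95 in osteoclasts. Its difference of -0.85 is a bound against the floor. With the osteoclast signal at the receptor level Cyp2r1 was at least 1.01-fold lower. Cyp27b1, which makes active vitamin D, and Cyp26a1, which clears retinoic acid, were below the floor in both arrays, and Cyp24a1 and Cyp26b1 were near background. Of 5 markers of steroid-producing cells 4 had a probe set, and their signals summed to 79.3 and 89.4. Star, which brings cholesterol into mitochondria, gave 41.6 and 45.9, above the receptor level in both arrays, Cyp11a1 is itself on this list, and Hsd3b1 and Amh lay below the floor.

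Among the 33 members with more than 1 probe set, 12 had at least 2 measured in both arrays. In 9 of these the probe sets lay within 0.49 of each other. The exceptions were Cyp20a1, with a range of 1.61, Akr1b10 with 0.997 and Cyp4f16 with 0.67, and in Cyp20a1 and Akr1b10 the value farthest from that of the brightest probe set came from the dimmest one.

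**Figure D4:**
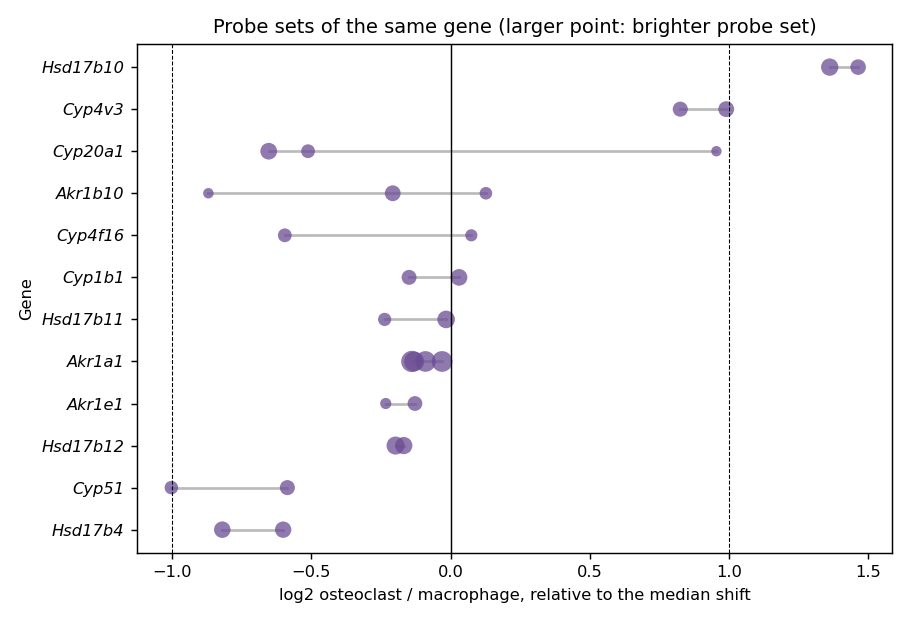
Log2 difference relative to the median shift of each probe set measured in both arrays, for the 12 members with at least 2 of them; a larger point is a brighter probe set and dashed lines mark 2-fold. Both probe sets of Hsd17b10 lie beyond 1, and those of Cyp20a1 lie on both sides of 0.

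The genes that supply P450s and reductases with electrons, heme and substrates were read from lists chosen with earlier results of these data known. Of 11 redox partners 8 had a probe set of their own, and Por, the gene of a partner reductase, did not. All 8 were measured, with a median of -0.26, and 1 was at least 2-fold higher, where 7.11% of all measured genes were. It was Fdx1, the ferredoxin that feeds mitochondrial P450s, with 383 in macrophages and 661 in osteoclasts (1.22). As deposited its difference was 0.79, and no redox partner was 2-fold higher. Cyb5a, cytochrome b5, gave 4110 and 2272 (-0.42). Of 9 heme synthesis genes 8 had a probe set and 7 were measured. None of these was 2-fold apart, from Alad at -0.52 to Urod at 0.78, with Alas1, the first enzyme of the route, at -0.24.

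Sensors of foreign compounds and of lipids were read next. Of 17 listed genes 16 had a probe set and 14 were measured, with a median of -0.06. Of the 14, 1 was at least 2-fold higher and 2 were lower, against 0 and 4 as deposited. The shares of all measured genes were 7.11% higher and 6.99% lower, and 3.0% and 17.5% as deposited. The Ah receptor gene Ahr gave 80.7 in macrophages and 123 in osteoclasts (1.04, and 0.61 as deposited), and its repressor gene Ahrr 195 and 86.9 (-0.74). Nqo1, a quinone reductase, gave 298 and 108 (-1.03), and Pparg, a lipid-sensing receptor, 244 and 80.6 (-1.17). Tiparp, also on this list, was at 0.67, and at 0.24 as deposited. Of 14 retinoid genes 12 had a probe set and 9 were measured, with a median of -0.04. Among these 0 were higher and 1 was lower (2 as deposited): Dhrs3, a retinal reductase, gave 710 and 160 (-1.72). Of 16 steroid and vitamin D partners 12 had a probe set and 9 were measured. None of these was 2-fold apart relative to the shift, while 2 were lower as deposited. The glucocorticoid receptor gene Nr3c1 was at -0.59 and H6pd, which supplies NADPH to the Hsd11b1 enzyme, at -0.58.

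The list of prostanoid, carbonyl and epoxide enzymes held larger differences. All 9 genes were measured, 2 were at least 2-fold higher and 2 lower, with a median of -0.04. Over all measured genes 7.11% were higher and 6.99% lower. Ephx2, the soluble epoxide hydrolase that acts on the epoxides P450s make from fatty acids, gave 25.1 in macrophages and 145 in osteoclasts and was at least 6.92-fold higher. Cbr2, a carbonyl reductase, gave 137 and 355 (1.81). Tbxas1, thromboxane synthase, which is a P450 by structure although its symbol does not begin with Cyp, gave 918 and 178 (-1.94). Cbr3, another carbonyl reductase, gave 1010 and 344 (-1.12).

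**Figure D5:**
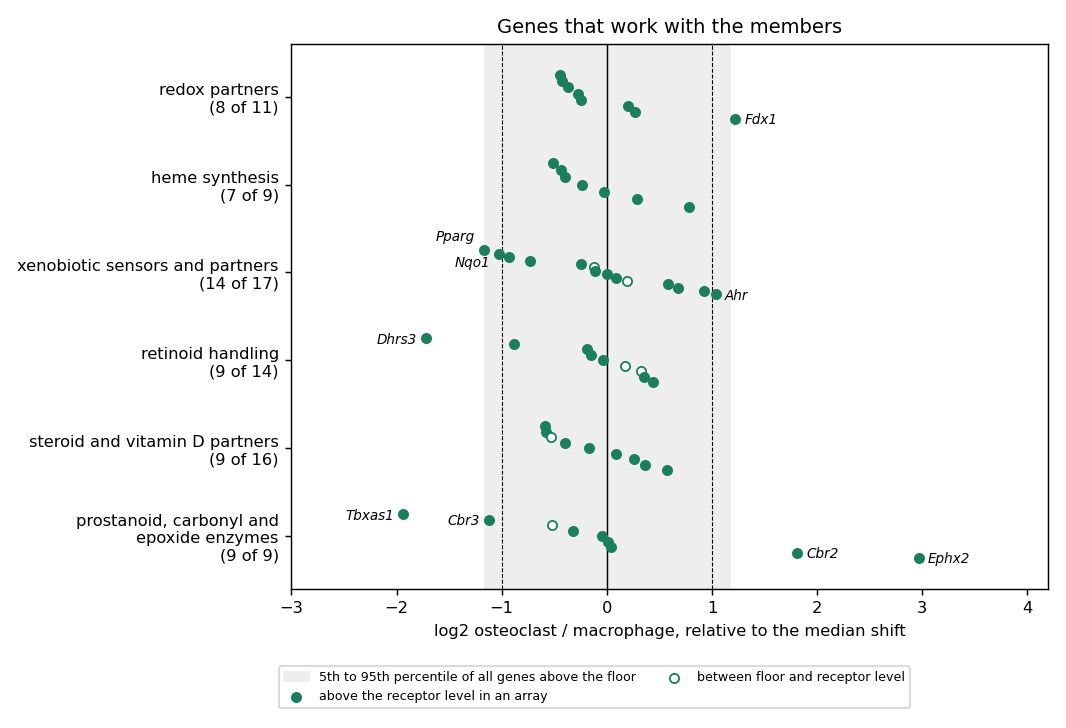
Log2 difference, osteoclast over macrophage relative to the median shift, of the listed genes above the floor in an array that supply, regulate or follow the members, with measured and listed genes in brackets. Symbols, band and dashed lines are as in the plot of members by role. Ephx2, Cbr2 and, just past its edge, Fdx1 lie to the right of the grey band. Tbxas1, Dhrs3 and, just past its edge, Pparg lie to the left.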

How the data were processed

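Biotinylated cRNA was made from 1 µg of total RNA with Affymetrix's one-cycle labelling, per the labels' protocols. The deposited values are linear intensities of 45101 probe sets in each array. For the authors' probe summary, background correction and scaling, nothing is given in the sources used here. The 64 control probe sets were left out, and 34945 probe sets with a single gene symbol in the platform annotation were used, 147 of them for the 104 members. All members' Entrez identifiers and symbols matched RefSeq (GRCm38.p6). Where only 1 array passed the floor, a bound that the shift would have turned was set to 0. Members, lists and rules were chosen with earlier results of these data known. Every member above the receptor level in an array was named, those between it and the floor were given without a fold, and the rest were counted. The other gene lists were named by members 2-fold apart, with a few others for their role. The procedure was tested on simulated arrays with 4-fold changes planted in bright probe sets only. Their noise was smaller than the SD between probe sets, so the test does not cover values near the floor or near 2-fold. Other centrings, floors, a pseudocount of 16 and another choice of probe set were tried. Python 3.11.15, pandas 2.3.3 and numpy 2.4.6 were used.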

Additional observations from a re-analysis of the deposited data

Results flagged for a closer look

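Of 4 probe sets that name a member together with another gene, and so entered no comparison, 2 gave a signal above the receptor level in both arrays. The probe set of Akr1c12 and Akr1c13 gave 1244 in macrophages and 1132 in osteoclasts, a log2 difference of 0.30 relative to the shift. The probe set of Cyp4f37 and Cyp4f16 gave 217 and 138, a difference of -0.22.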

How the results depend on the processing

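Of the 104 members 56 were measured, 8 had osteoclast signals higher by 2-fold or more and 2 had signals lower by that much. Of all measured genes 7.11% were higher and 6.99% lower. As deposited, with no centring, 3 members were higher and 10 lower, against 3.0% and 17.5% of all measured genes. With centring on the median of all probe sets (-0.24) 4 were higher and 4 lower, against 4.83% and 10.4% of all measured genes. With the floor at the receptor level 32 were measured, 4 were higher and 1 was lower, against 6.3% and 6.53% of all. With no floor all 104 counted, 28 were higher and 26 lower, as background values then have a ratio. Of all genes 15.3% were then higher and 14.3% lower. With log2(signal + 16) in place of a floor 1 was lower and 10 were higher, and no count of measured members exists. The shares of all genes were 3.56% lower and 6.85% higher. Quantile normalization gave 7 higher and 3 lower, against 6.28% and 7.75% of all measured genes. The mean of all probe sets of a gene gave 6 and 2 of 46 measured members, against 7.39% and 7.09%. Akr1c18 and Cyp2s1 were past 2-fold under every setting tried, Hsd17b10 under all but the values as deposited and Hsd3b7 under all but those and the centring on all probe sets. Cyp27a1 was under 2-fold with the pseudocount and with the mean of probe sets, while Hsd17b11 was past 2-fold lower with the latter (-1.17) and at 0.0057 after quantile normalization. No member past 2-fold in the values reported changed sign. No paired analysis was possible because each group has 1 array.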
